A study of Schizosaccharomyces pombe with 8 samples.

Results

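RNA interference (RNAi) and heterochromatin in fission yeast depend on a small set of proteins, and the mRNA levels of 10 of their genes were compared here across strains of Schizosaccharomyces pombe that lack Mot2, the long non-coding RNA mamRNA, or both. The genes were chosen by name (ago1, dcr1, rdp1, chp1, tas3, clr4, swi6, chp2, clr3 and clr1), sense features only. All 10 were found among the 6973 features of the count tables, and all 10 were among the 6620 features that passed the filter on low counts. Total RNA was sequenced from 4 genotypes, with 2 libraries each. All strains were h90, the homothallic mating type. The genotypes were wild type (wt), mot2::natMX (mot2∆), mamRNA::natMX (mamRNA∆) and the double mutant mamRNA::hygTK mot2::kanMX (mot2∆ mamRNA∆), so the double mutant carried other drug markers than the single mutants. Cultures were kept for 2 days at 30 °C in minimal medium, and cells were collected while dividing exponentially (optical density 0.6). The labels do not say whether the libraries of a genotype came from separate cultures or clones, and the p-values measure the spread between these libraries only, which may be technical.

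In fission yeast, transcripts of centromeric and other repeats are copied into double-stranded RNA by the RNA-dependent RNA polymerase Rdp1 and cut into small RNAs by the ribonuclease Dcr1. The Argonaute protein Ago1 carries these small RNAs in a complex with Tas3 and the chromodomain protein Chp1, and guides the methyltransferase Clr4 to chromatin, where it methylates histone H3. The methyl mark is bound by the HP1-family proteins Swi6 and Chp2, and deacetylation by the SHREC complex, which contains Clr1 and the histone deacetylase Clr3, keeps the chromatin compact. Mot2 is an E3 ubiquitin ligase that works within Ccr4-Not. The RNA mamRNA is bound by Mmi1 and Mei2, the RNA-binding proteins that respectively eliminate and promote meiotic transcripts.

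Total counts ranged from 22381332 to 34667534 per library. The 10 genes had between 87 and 3721 counts per library. The libraries of a genotype differed by more than sampling noise (chi-square per degree of freedom 6.88 to 45.7), and the wt pair differed most, with a median absolute difference of 0.151 on the log2 scale against 0.0597 to 0.0981 in the mutants. Features of ribosomal RNA held 2.28% of all counts in the first wt library but 0.723% in the second. The deleted gene mot2 stood at 22.3 and 23.4 CPM (counts scaled to library size with TMM factors) in wt and at 4.11 and 4.26 CPM in mot2∆. In mamRNA∆ it stood at 18.9 and 18.8 CPM, and in mot2∆ mamRNA∆ at 2.72 and 2.77 CPM, which follows the labels for Mot2. No feature analysed here checks the labels for mamRNA. The summed level of 6 mating genes (mat1-Mc, mfm1, mfm2, mfm3, map2 and ste11) was between 507.6 and 599.7 CPM in wt, between 1556 and 1621 CPM in mot2∆, between 462.8 and 528.8 CPM in mamRNA∆ and between 457.2 and 477.2 CPM in mot2∆ mamRNA∆. All 6 were called higher in mot2∆ than in wt, as were 3 of 3 meiotic genes (mei4, spo5 and rec8), and none was at 0 counts in any library. The sum hides opposite moves in the double mutant. There, against wt, mfm1 and mfm2 were called higher (log2 fold changes 0.68 and 0.65) and ste11 lower (-0.89), as were 2 meiotic genes. In mamRNA∆ against wt, 3 mating and 2 meiotic genes were called lower and 0 higher. In bulk RNA, a change in the share of cells that express a gene and a change in RNA per cell cannot be told apart, and the part of mating or meiotic cells in the values below was not tested.

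For 2 of the 10 genes, another protein-coding gene covers a large part of the annotated transcript, so their counts may hold its reads. In the RefSeq annotation of assembly ASM294v3, which matched all 10 genes by symbol, the whole of meu6, a gene named for its upregulation in meiosis, lies within the 2579-base 3′ untranslated region of clr4 on the opposite strand, and its exons cover 51.3% of the clr4 transcript. The septin gene spn6 likewise runs against the end of dcr1 and covers 32.8% of its transcript. The genes of each pair converge and their transcripts overlap, so the sequences below do not show a gap between them. Each runs from the stop codon of clr4 or dcr1 to a point in the neighbour. That point is the transcript end for meu6 and the stop codon for spn6. The strand shown is that of clr4 or dcr1. In the first, the capitals are the clr4 stop codon and the last base is opposite the last annotated base of meu6, with 21 bases in between (chrII:456553-456577, minus strand, ASM294v3). In the second, the capitals at the start are the dcr1 stop codon and those at the end are the spn6 stop codon read on the opposite strand, with 20 bases in between (chrIII:1506143-1506168, minus strand, ASM294v3).
clr4 to meu6: TAAgctaatttattactggttgact
dcr1 to spn6: TGAgacttgaaatatacagtattTCA
The genome build, the annotation and the strand setting of the deposited counts are not given in the sources used here. A count feature named as the antisense of clr3 had 1.01 to 1.04 times the counts of clr3 in every library, so reads of these 2 features cannot be told apart. The only other overlap with a protein-coding gene was that of clr1 and mhf1, over 57 bases. Non-coding RNAs are annotated against every member except swi6, and none of these is listed under its annotated name in the counts. A single one covers 72.3% of the chp2 transcript, 52.3% of that of ago1, 35.4% of that of clr4 and 33.0% of that of rdp1. If strand was not used in counting, the counts of the members may hold reads of such RNAs.

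Mmi1 recognises the RNA motif UNAAAC. As TNAAAC, overlapping matches counted, it occurred between 3 and 12 times on the sense strand of the annotated transcripts of the 10 genes, which is 1.38 matches per kilobase in tas3 and 2.97 in clr1 at the extremes. The median over 5124 protein-coding transcripts was 1.64 per kilobase, and 89.4% of them held at least 1 match on the sense strand and 90.6% on the reverse strand. The clr4 transcript held 8 matches and rdp1 held 7, while meu6, in fewer bases, held 7, or 3.09 per kilobase. The meiotic transcripts mei4, spo5 and rec8 held 4.96, 6.99 and 8.03 per kilobase. A match is a description of the letters and not a binding site.

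Levels per kilobase of annotated transcript set the 10 genes in an order in wt cells. On that scale clr3 was highest, with 30.1 and 31.0 CPM per kilobase in the 2 libraries, and chp2 was lowest, with 3.37 and 4.32. Between them came ago1 (27.1 and 27.4) and swi6 (23.5 and 27.7), whose ranges overlapped, then rdp1 (13.1 and 15.2) and dcr1 (12.9 and 14.0), which also overlapped. They were followed by clr4 (10.4 and 11.3) and clr1 (9.96 and 10.5), and by tas3 (4.77 and 6.66) and chp1 (5.10 and 6.14), and within each of these pairs the ranges overlapped. The values of clr4, dcr1 and clr3 may include reads of the overlapping features, and the lengths are those of ASM294v3.

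**Figure D1:**
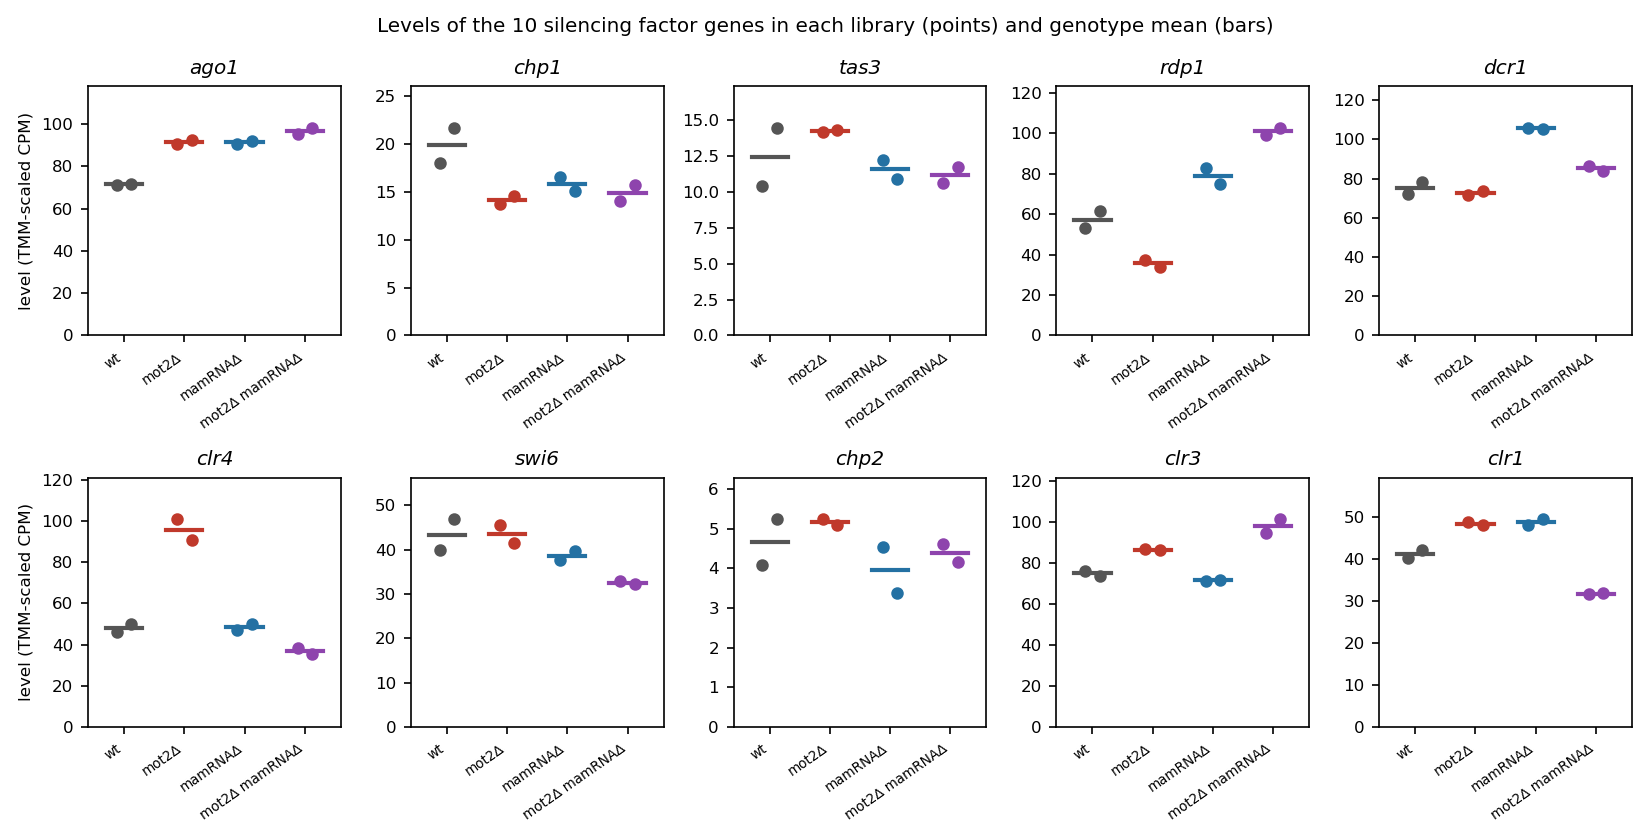
Levels of the 10 genes in TMM-scaled CPM (vertical axis, from 0) by genotype (horizontal axis). Points are libraries and bars are the means of 2 libraries. The rdp1 points lie lowest in mot2∆ (33.97 and 37.2) and highest in mot2∆ mamRNA∆ (99.2 and 103), while the clr4 points lie highest in mot2∆ (90.6 and 101.0).

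The 10 genes were compared between genotypes beside all 6620 features, using an edgeR adjusted p under 0.05 as the call. In mot2∆ against wt, 6 of the 10 were called, where 59.2% of all features were. Of these, ago1, clr4, clr3 and clr1 were higher (29.1% of all features) and rdp1 and chp1 lower (30.2%). In mamRNA∆ against wt, 5 were called beside 42.5% of all features, with ago1, dcr1, rdp1 and clr1 higher (19.9%) and chp1 lower (22.7%). In mot2∆ mamRNA∆ against wt, 8 were called beside 59.4% of all features, with ago1, dcr1, rdp1 and clr3 higher (28.9%) and chp1, clr4, swi6 and clr1 lower (30.5%). Against mot2∆, the double mutant had 7 calls beside 56.2% of all features, with dcr1, rdp1 and clr3 higher (27.4%) and tas3, clr4, swi6 and clr1 lower (28.8%). Against mamRNA∆, it had 6 calls beside 60.4% of all features, with rdp1 and clr3 higher (29.6%) and dcr1, clr4, swi6 and clr1 lower (30.8%). The interaction compares what the loss of mamRNA did in mot2∆ with what it did in wt, as a difference on the log2 scale. It passed for 6 genes beside 47.6% of all features, above 0 for rdp1 and clr3 (24.4%) and below 0 for ago1, dcr1, clr4 and clr1 (23.3%). Groups whose libraries did not overlap were common among all features, at 75.8%, 70.9%, 78.4%, 81.8% and 85.9% in the 5 comparisons in that order.

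The median log2 fold change of the 10 genes was 0.16, -0.03, -0.13, -0.08 and -0.07 in the 5 comparisons in that order and -0.24 for the interaction, beside medians between -0.02 and 0.0029 over all features. Among calls, changes over 1 on the log2 scale were found for rdp1 and clr4 only, in mot2∆ mamRNA∆ against mot2∆, where 6.74% of all features passed that fold threshold, and in the interaction, where 11.1% did. In the comparisons with no such member, 8.56% of all features passed it in mot2∆, 3.99% in mamRNA∆ and 8.79% in the double mutant against wt, and 9.86% in the double mutant against mamRNA∆. The comparisons with wt share its 2 libraries.

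The counts of called members depended on single libraries in some comparisons. In mamRNA∆ against wt, the 1 lower call became 0 without wt replicate 2 or either mamRNA∆ library and 3 without wt replicate 1. In mot2∆ mamRNA∆ against mot2∆, the 3 higher calls became 1 without mot2∆ replicate 1 or either double mutant library. For the interaction, the 2 higher calls became 1 without any 1 of the 6 mutant libraries, and the 4 lower calls became 2 without any 1 of the mamRNA∆ or double mutant libraries and 6 without wt replicate 2.

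**Figure D2:**
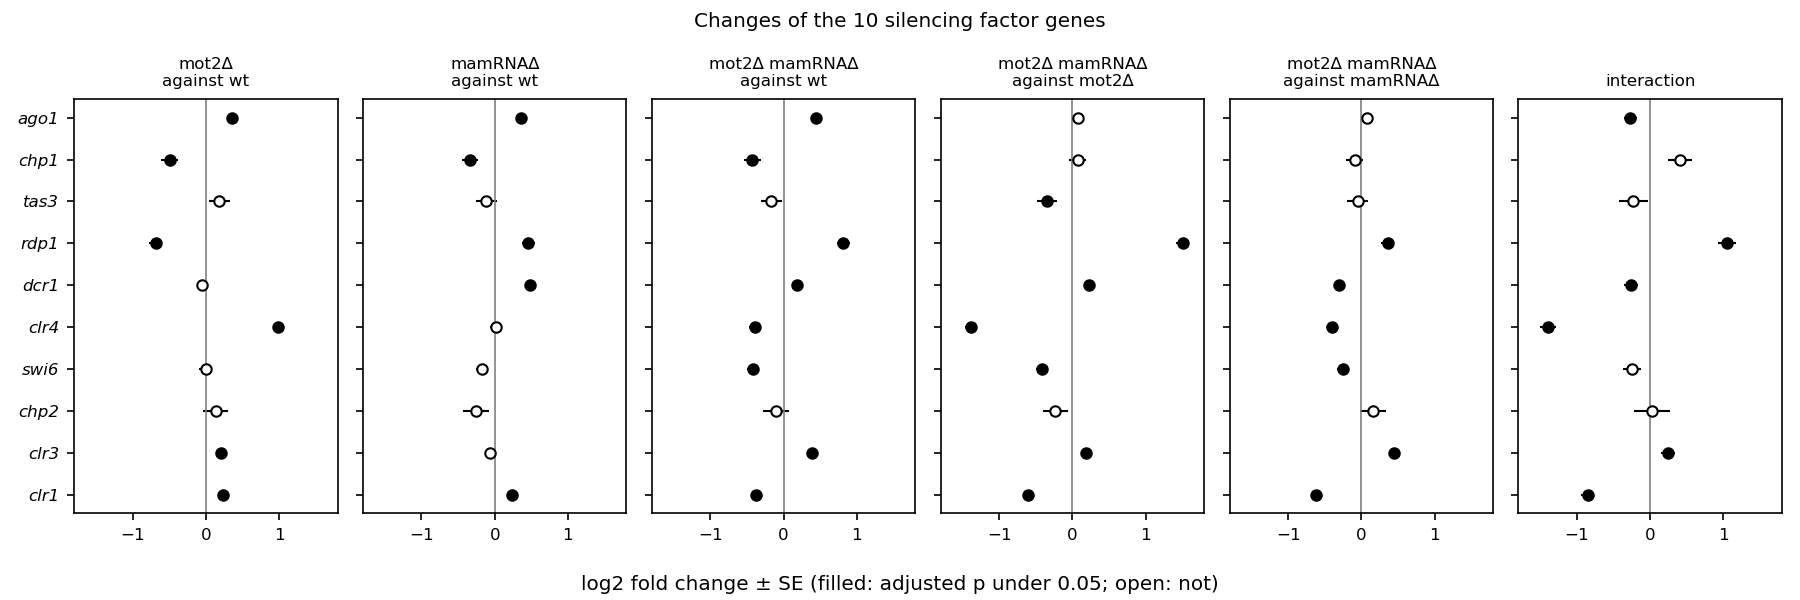
Log2 fold changes with standard errors (horizontal axis) of the 10 genes (rows) in the 5 comparisons between genotypes and for the interaction. Filled points passed an edgeR adjusted p of 0.05. The rdp1 and clr4 points lie far from 0 in mot2∆ mamRNA∆ against mot2∆ (1.50 and -1.38) and for the interaction (1.04 and -1.40).

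The gene of the RNA-dependent RNA polymerase, rdp1, moved in opposite directions in the single mutants. It stood at 52.9 and 61.5 CPM in wt, 37.2 and 33.97 CPM in mot2∆, 82.8 and 74.8 CPM in mamRNA∆ and 99.2 and 103 CPM in mot2∆ mamRNA∆. Both mot2∆ libraries lay below both wt libraries, both mamRNA∆ libraries lay above them, and the double mutant lay above all others. The log2 fold change against wt was -0.69 (SE 0.089) in mot2∆, which is 1.61-fold lower (edgeR adjusted p = 3.75e-05). It was 0.46 (SE 0.086) in mamRNA∆ (edgeR adjusted p = 0.00128) and 0.82 (SE 0.086) in the double mutant, or 1.76-fold higher (edgeR adjusted p = 6.98e-06). Between mot2∆ and the double mutant the level differed 2.84-fold, or 1.50 (SE 0.088) on the log2 scale, with an edgeR adjusted p of 6.66e-08. The mot2 deletion went with less rdp1 mRNA when mamRNA was present, whereas in cells without mamRNA the change was 0.36 (SE 0.084; edgeR adjusted p = 0.0028). Only scaling to total counts ended the latter call (0.28, edgeR adjusted p = 0.0534). The test of this difference, the interaction, was 1.04 (SE 0.12; edgeR adjusted p = 2.64e-05) and ranged from 0.93 to 1.148 over the alternatives.

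The Dicer gene dcr1 was highest in mamRNA∆. Its levels were 72.1 and 78.3 CPM in wt, 71.6 and 73.8 CPM in mot2∆, 106 and 105 CPM in mamRNA∆ and 86.4 and 83.9 CPM in the double mutant. The wt and mot2∆ ranges overlapped, and the mamRNA∆ libraries lay above all others. Against wt, the log2 fold change was 0.49 (SE 0.067) in mamRNA∆ (edgeR adjusted p = 0.000145), while the mot2∆ value of -0.05 (SE 0.067) did not pass. Against mamRNA∆, the double mutant changed by -0.31 (SE 0.066; edgeR adjusted p = 0.00146). Since dcr1 overlaps spn6, the spn6 counts of each library were also subtracted from those of dcr1, an alternative chosen after the data were examined. The remaining level was 45.3 and 51.4 CPM in wt, 40.4 and 44.96 CPM in mot2∆, 70.4 and 69.8 CPM in mamRNA∆ and 56.4 and 52.6 CPM in the double mutant, and the change in mamRNA∆ was 0.53 (SE 0.080; edgeR adjusted p = 0.000279). That in mot2∆ was -0.18 (SE 0.081; edgeR adjusted p = 0.0705). The 3 smaller dcr1 calls were less stable. The change of 0.18 in the double mutant against wt was lost with the subtraction (edgeR adjusted p = 0.0849), without any 1 of wt replicate 1, the mamRNA∆ or the double mutant libraries (edgeR adjusted p = 0.0595 to 0.188) and with DESeq2 (adjusted p = 0.0533). It was also lost with library totals as the scale (0.12, edgeR adjusted p = 0.24) and with the compared genotypes alone (edgeR adjusted p = 0.0682). The change of 0.23 against mot2∆ was lost without mot2∆ replicate 1 or either double mutant library (edgeR adjusted p = 0.0579 to 0.0933) and when libraries were scaled to their totals (0.14, edgeR adjusted p = 0.178), whereas with the subtraction it was 0.35 (edgeR adjusted p = 0.0025). The interaction of -0.26 was lost with the subtraction (-0.18, edgeR adjusted p = 0.206) and without any 1 of 6 libraries (edgeR adjusted p = 0.0513 to 0.142), the exceptions being wt replicate 2 and mot2∆ replicate 1. DESeq2 did not call it either (adjusted p = 0.0824).

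Of the 3 genes of the Ago1-Chp1-Tas3 complex, ago1 was higher and chp1 lower in every mutant than in wt. The Argonaute gene ago1 stood at 71.1 and 71.8 CPM in wt, 90.4 and 92.7 CPM in mot2∆, 90.8 and 91.9 CPM in mamRNA∆ and 95.2 and 98.4 CPM in the double mutant, so that no mutant library overlapped wt. The log2 fold changes against wt were 0.36 (SE 0.062), 0.35 (SE 0.062) and 0.44 (SE 0.062), with edgeR adjusted p of 0.000388, 0.000851 and 7.73e-05, each held under every alternative. The double mutant differed from the single mutants by 0.08 (SE 0.062 and 0.061), which did not pass the test. The interaction was -0.27 (SE 0.088; edgeR adjusted p = 0.0216), a call lost without any 1 of the mamRNA∆ or double mutant libraries (edgeR adjusted p = 0.0615 to 0.107) and with DESeq2 (adjusted p = 0.0548).

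The chromodomain gene chp1 was less abundant, at 18.0 and 21.7 CPM in wt against 13.8 to 16.6 CPM over the 6 mutant libraries. It fell by 0.50 on the log2 scale in mot2∆ (SE 0.11; edgeR adjusted p = 0.00253), by 0.34 in mamRNA∆ (SE 0.11; edgeR adjusted p = 0.03) and by 0.43 in the double mutant (SE 0.11; edgeR adjusted p = 0.00613). The mot2∆ call held under every alternative. The mamRNA∆ call was lost without wt replicate 2 or either mamRNA∆ library (edgeR adjusted p = 0.0524 to 0.218) and when libraries were scaled to their totals (edgeR adjusted p = 0.117), and the double mutant call without wt replicate 2 or double mutant replicate 1 (edgeR adjusted p = 0.0652 and 0.0702). The chp1 interaction was 0.40 (SE 0.16; edgeR adjusted p = 0.0538), and it passed with RLE factors (edgeR adjusted p = 0.0418) and without wt replicate 1 (0.53, edgeR adjusted p = 0.0145). The gene of the linker protein Tas3 was at 10.4 and 14.5 CPM in wt, and every mutant range overlapped the wt range. It passed the test only in the double mutant against mot2∆ (-0.35, SE 0.14; edgeR adjusted p = 0.0493), a call lost without any 1 of the 6 mutant libraries (edgeR adjusted p = 0.0542 to 0.237), with library totals as the scale (edgeR adjusted p = 0.0653) and with DESeq2 (adjusted p = 0.0553). In mot2∆ against wt it was called higher only without wt replicate 2 (0.46, edgeR adjusted p = 0.0152), and in mamRNA∆ and the double mutant against wt it was called lower only without wt replicate 1 (edgeR adjusted p = 0.0471 and 0.0214).

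The feature of the histone methyltransferase gene clr4 rose in mot2∆, and so did the overlapping meu6. The level of clr4 was 46.1 and 50.1 CPM in wt, 101.0 and 90.6 CPM in mot2∆, 47.1 and 50.1 CPM in mamRNA∆ and 38.3 and 35.2 CPM in the double mutant. The mot2∆ libraries lay above all others and the double mutant below all others. Relative to wt, mot2∆ had a log2 fold change of 0.99 (SE 0.079), or 1.99-fold (edgeR adjusted p = 7.35e-07), -0.39 (SE 0.081) in the double mutant against wt (edgeR adjusted p = 0.00132) and -1.38 (SE 0.080) in the double mutant against mot2∆ (edgeR adjusted p = 6.06e-08). The interaction was -1.40 (SE 0.11; edgeR adjusted p = 1.41e-06). In mamRNA∆ the change was 0.01 (SE 0.080).

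The meu6 feature had 23.3 and 25.8 CPM in wt, 81.3 and 72.99 CPM in mot2∆, 27.0 and 28.6 CPM in mamRNA∆ and 21.9 and 19.6 CPM in the double mutant. As a share of the clr4 counts, those of meu6 came to 50.6% and 51.5% in the wt libraries but to 80.5% and 80.6% in the mot2∆ libraries. The shares were 57.4% and 57.1% for mamRNA∆ and 57.2% and 55.8% for the double mutant. If every meu6 read was also counted for clr4, as the overlap would have it, the rest fell on the part of clr4 outside meu6. That part holds the clr4 coding sequence. A non-coding RNA is also annotated against 35.4% of the clr4 transcript, and its share of the rest was not tested. That rest was 22.8 and 24.3 CPM in wt, 19.7 and 17.6 CPM in mot2∆, 20.1 and 21.5 CPM in mamRNA∆ and 16.4 and 15.6 CPM in the double mutant. Both mot2∆ libraries then lay below both wt libraries. With the meu6 counts subtracted, an alternative chosen after the data were examined, the clr4 change in mot2∆ turned to -0.34 (SE 0.092; edgeR adjusted p = 0.00735). The double mutant stayed lower than wt (-0.56, SE 0.093; edgeR adjusted p = 0.000256). Its difference from mot2∆ (-0.22, SE 0.093; edgeR adjusted p = 0.0608) and the interaction (-0.04, SE 0.13; edgeR adjusted p = 0.821) no longer passed the test. Of the 10 members, 3 were then higher and 3 lower in mot2∆ than in wt.

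**Figure D3:**
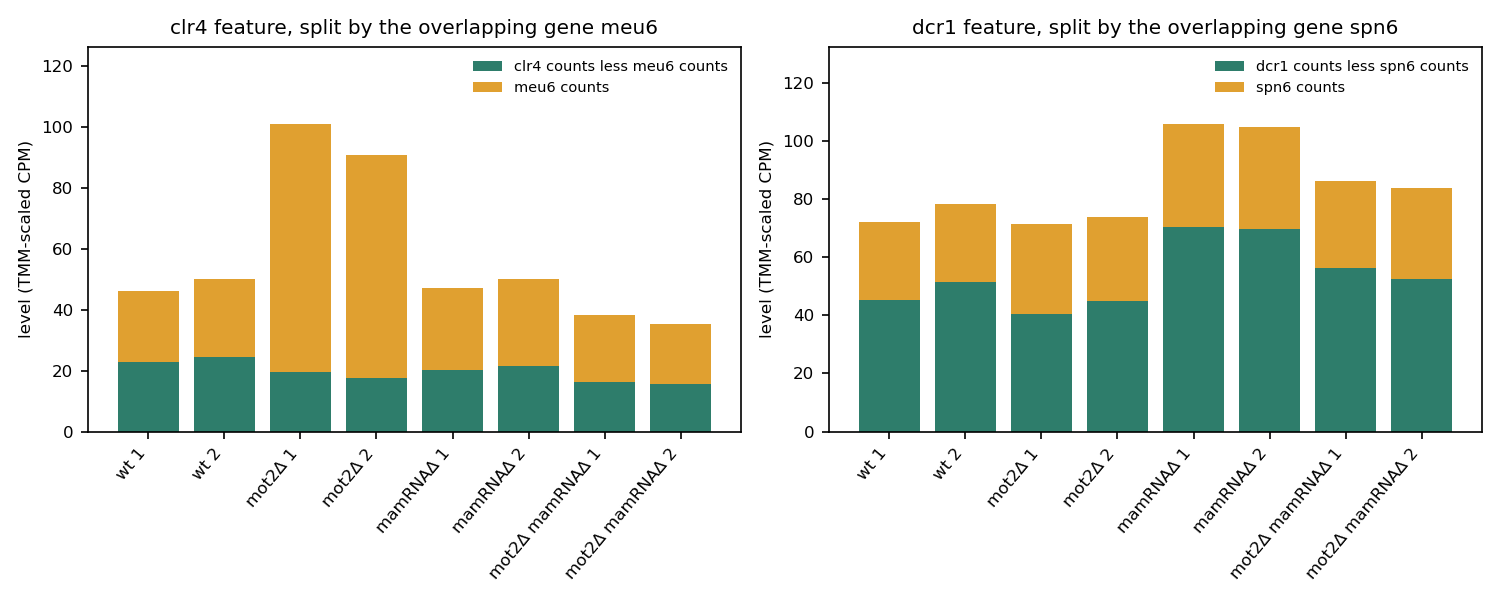
Levels of the clr4 feature (left) and the dcr1 feature (right) in each library in TMM-scaled CPM, from 0. Each bar is split into the counts of the overlapping gene, meu6 or spn6 (upper, yellow), and the rest (lower, green). In the left panel the upper part makes up 81.3 and 72.99 CPM in the mot2∆ libraries, while the lower part stays between 15.6 and 24.3 CPM in all 8 libraries.

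Of the genes of the HP1-family proteins, which bind the mark that Clr4 makes, swi6 was called lower in the double mutant and chp2 was not called in any comparison. The level of swi6 was 39.9 and 46.9 CPM in wt, 45.5 and 41.4 CPM in mot2∆, 37.6 and 39.6 CPM in mamRNA∆ and 32.9 and 32.2 CPM in the double mutant, where it lay below all other libraries. It was lower in the double mutant than in wt (-0.42, SE 0.086; edgeR adjusted p = 0.0012) and than in mot2∆ (-0.42, SE 0.085; edgeR adjusted p = 0.00128), calls that held under every alternative. Its difference from mamRNA∆ (-0.25, SE 0.085; edgeR adjusted p = 0.0243) was lost without mamRNA∆ replicate 2 or either double mutant library (edgeR adjusted p = 0.0755 to 0.142) and with DESeq2 (adjusted p = 0.0501). In mot2∆ against wt the swi6 change was -0.0016 (SE 0.085), and in mamRNA∆ it was -0.17 (SE 0.085; edgeR adjusted p = 0.126), which passed without wt replicate 1 (-0.28, edgeR adjusted p = 0.0187). The interaction of swi6, -0.25 (SE 0.12; edgeR adjusted p = 0.111), passed without wt replicate 2 (-0.37, edgeR adjusted p = 0.0167). The least abundant member, chp2, had 87 to 158 counts per library, and none of its changes passed the test. Between genotypes they lay between -0.26 and 0.16 with SE of 0.17 to 0.18.

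The SHREC genes clr3 and clr1 parted in the double mutant. The deacetylase gene clr3 stood at 76.0 and 73.7 CPM in wt, 86.8 and 86.1 CPM in mot2∆, 71.3 and 71.8 CPM in mamRNA∆ and 94.4 and 101 CPM in the double mutant. It was higher in the double mutant than in wt (0.39, SE 0.065; edgeR adjusted p = 0.000274) and than in mamRNA∆ (0.45, SE 0.065; edgeR adjusted p = 7.67e-05), and higher in mot2∆ than in wt (0.21, SE 0.065; edgeR adjusted p = 0.0155), the last lost when mamRNA∆ and the double mutant were left out of the fit (edgeR adjusted p = 0.0586). Its difference between the double mutant and mot2∆ (0.18, edgeR adjusted p = 0.0321) was lost without any 1 of the 6 mutant libraries (edgeR adjusted p = 0.0528 to 0.309), with library totals as the scale (0.09, edgeR adjusted p = 0.264) and with DESeq2 (adjusted p = 0.0522). Its interaction (0.24, SE 0.092; edgeR adjusted p = 0.0448) was lost without any 1 of 7 libraries, wt replicate 2 being the exception (edgeR adjusted p = 0.0519 to 0.227), and with 7 other alternatives. The feature named as its antisense changed by 0.38 in the double mutant against wt (edgeR adjusted p = 0.000293).

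The zinc finger gene clr1 rose in each single mutant and fell in the double mutant. Its levels were 40.3 and 42.3 CPM in wt, 49.0 and 48.1 CPM in mot2∆, 48.2 and 49.6 CPM in mamRNA∆ and 31.6 and 31.96 CPM in the double mutant, and the double mutant lay below all other libraries. The log2 fold change against wt was 0.23 (SE 0.065; edgeR adjusted p = 0.00831) in mot2∆, 0.24 (SE 0.065; edgeR adjusted p = 0.00994) in mamRNA∆ and -0.38 (SE 0.066; edgeR adjusted p = 0.000365) in the double mutant. The mamRNA∆ call was lost without mamRNA∆ replicate 2 (edgeR adjusted p = 0.0903). Against mot2∆ the change in the double mutant was -0.61 (SE 0.065; edgeR adjusted p = 9.64e-06), and against mamRNA∆ the change was -0.62 (SE 0.065; edgeR adjusted p = 5.44e-06). The interaction of -0.85 (SE 0.091; edgeR adjusted p = 1.3e-05) ranged from -0.97 to -0.82 over the alternatives.

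Other genes of the pathway were counted from lists of 29 names, all of them tested. These were 10 further RNAi genes, 5 of CLRC, 7 of SHREC and other deacetylases, and 7 that counteract silencing. In mot2∆ against wt, 5 were higher and 11 lower, beside 29.1% and 30.2% of all features. In mamRNA∆ 6 were higher and 4 lower, beside 19.9% and 22.7%. In the double mutant against wt, 2 were higher and 14 lower, beside 28.9% and 30.5%. Against mot2∆, 6 were higher and 12 lower, beside 27.4% and 28.8%. Against mamRNA∆, 4 were higher and 20 lower, beside 29.6% and 30.8%, and 5 of the 20 were genes that counteract silencing. The median log2 fold change there was -0.28, beside -0.02 over all features. These counts moved with single libraries. The 20 lower calls became 11 to 13 without any 1 of the mamRNA∆ or double mutant libraries, and the 12 lower calls against mot2∆ became 4 or 5 without mot2∆ replicate 1 or either double mutant library. The 5 higher calls in mot2∆ became 8 without wt replicate 2 and 3 without wt replicate 1 or either mot2∆ library. In mamRNA∆ the 4 lower calls became 8 without wt replicate 1 and 1 without wt replicate 2 or either mamRNA∆ library, and the 6 higher calls became 3 without mamRNA∆ replicate 2. Of the 28 that matched the RefSeq annotation, 18 overlapped another protein-coding gene and 10 did so over at least 25% of their transcript, so that their counts may hold reads of that gene. Scaling by total counts left 3 higher in mot2∆ and 1 lower in mamRNA∆.

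Among 10 further RNAi genes, arb1, whose product belongs to an Argonaute chaperone complex, changed in the double mutant. It stood at 12.5 and 12.4 CPM in wt, 12.7 and 13.4 CPM in mot2∆, 14.6 and 14.8 CPM in mamRNA∆ and 6.96 and 6.67 CPM in the double mutant, which lay below all other libraries. Its change in the double mutant against wt was -0.87 (SE 0.11; edgeR adjusted p = 2.3e-05) and its interaction -1.17 (SE 0.14; edgeR adjusted p = 3.81e-05), although an antisense feature of arb1 is also listed. The gene of the RNA-dependent RNA polymerase partner Cid12 was also lower in the double mutant (-0.86, SE 0.082; edgeR adjusted p = 3.44e-06), but trp663 and naa50 overlap it. In mamRNA∆, dsh1 rose by 0.50 (SE 0.10; edgeR adjusted p = 0.00221). In mot2∆, ers1 rose by 0.39 (SE 0.14; edgeR adjusted p = 0.0277), and its interaction was -0.80 (SE 0.20; edgeR adjusted p = 0.00538).

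Of the 5 genes of CLRC, the complex that holds Clr4, rik1 was lower in mot2∆ (-0.62, SE 0.069; edgeR adjusted p = 1.21e-05), although another protein-coding gene is annotated against 87.1% of its transcript, and raf2 in the double mutant (-0.54, SE 0.097; edgeR adjusted p = 0.000441), while ddb1, which also serves other ubiquitin ligases, was higher in mamRNA∆ (0.53, SE 0.074; edgeR adjusted p = 0.000184) and in the double mutant (0.56, SE 0.074; edgeR adjusted p = 4.49e-05). In the list of SHREC and other deacetylase genes, the SHREC subunit gene clr2 went lowest in mamRNA∆. It was at 55.8 and 49.6 CPM in wt, 35.5 and 38.0 CPM in mot2∆, 27.3 and 28.2 CPM in mamRNA∆ and 48.2 and 47.2 CPM in the double mutant. Both single mutants lay below wt and below the double mutant. The change was -0.92 (SE 0.076; edgeR adjusted p = 2.47e-06) in mamRNA∆ and -0.52 (SE 0.075; edgeR adjusted p = 9.58e-05) in mot2∆, and the interaction was 1.30 (SE 0.11; edgeR adjusted p = 1.57e-06). The interaction of clr2 was thus above 0 and that of clr1 below 0. The telomere protein gene ccq1 was higher in mot2∆ (0.72, SE 0.066; edgeR adjusted p = 2.24e-06).

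Among genes that counteract silencing, epe1, which encodes a JmjC-domain protein, was lower in mot2∆ (-0.52, SE 0.065; edgeR adjusted p = 2.93e-05) and higher in mamRNA∆ (0.28, SE 0.064; edgeR adjusted p = 0.00395). The bromodomain gene bdf2 was lower in mot2∆ (-0.63, SE 0.068; edgeR adjusted p = 9.59e-06). The histone H2B ubiquitin ligase gene brl1 was higher in mot2∆ (0.71, SE 0.094; edgeR adjusted p = 4.54e-05) and its change in the double mutant against mot2∆ was -1.05 (SE 0.094; edgeR adjusted p = 2.42e-06). A single non-coding RNA is annotated against 98.6% of the brl1 transcript, 48.4% of that of epe1 and 22.0% of that of bdf2. Their counts may hold reads of such RNAs. The same holds for other genes named above, such as ddb1 with 38.4%.

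**Figure D4:**
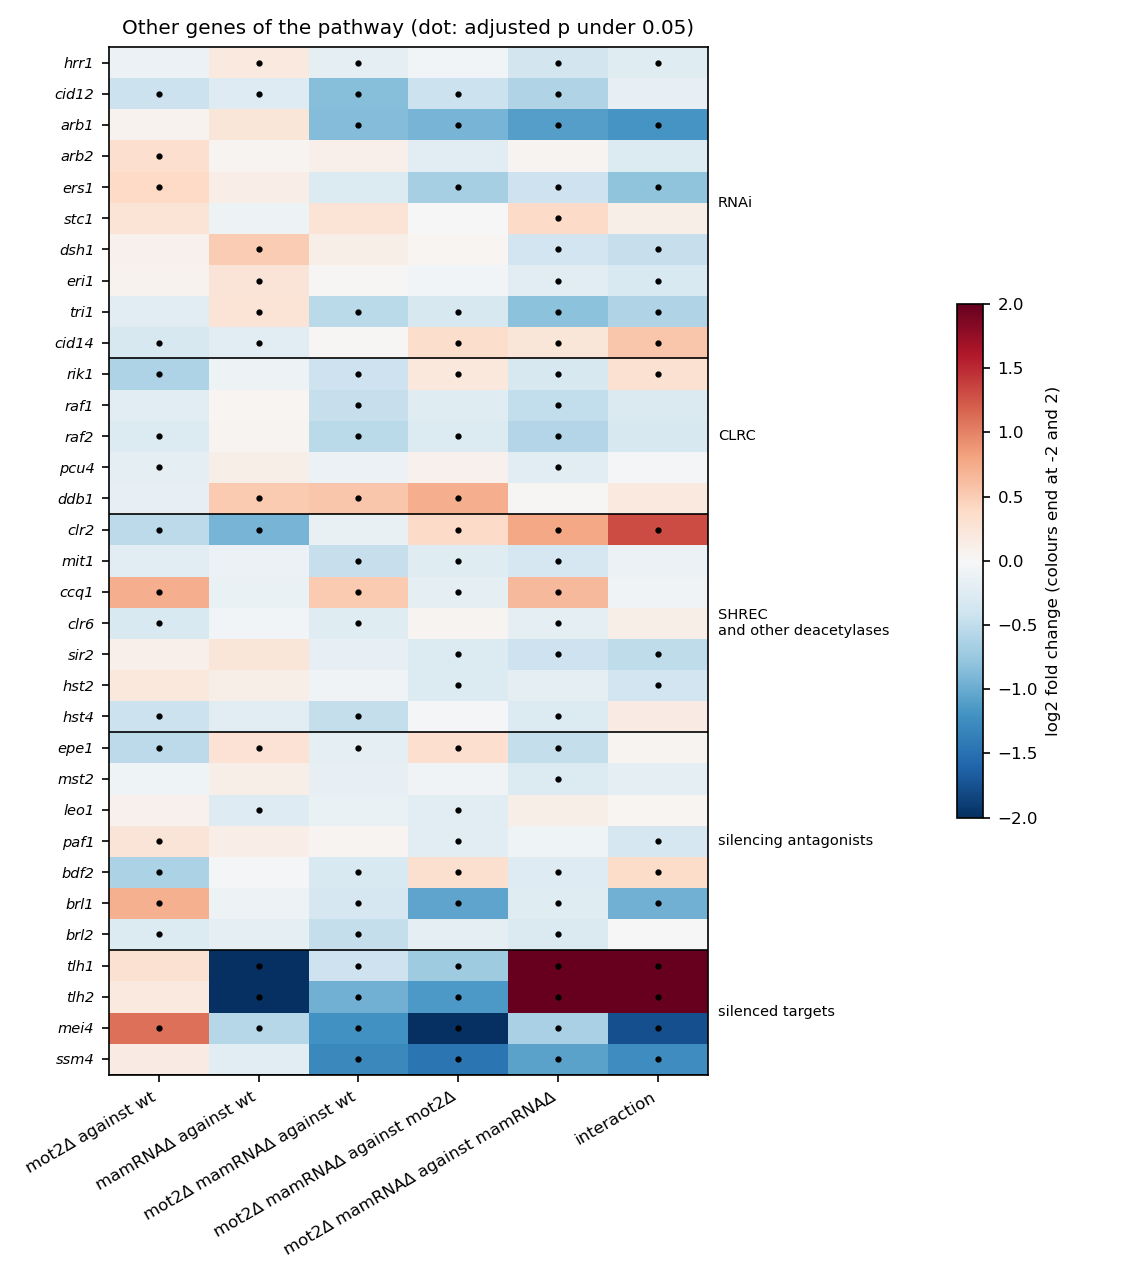
Log2 fold changes (colour, red higher and blue lower, ending at -2 and 2) of the other pathway genes and of 4 silenced targets (rows, grouped by list) in the 5 comparisons and for the interaction (columns). Dots mark an edgeR adjusted p under 0.05. The most intense rows are those of tlh1 and tlh2 in mamRNA∆ against wt (-4.38 and -4.26).

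Of genes that heterochromatin is known to silence, tlh1 and tlh2 encode subtelomeric helicases and are so alike in sequence that their reads can be split between them. The level of tlh1 was 10.2 and 13.3 CPM in wt, 14.5 and 14.8 CPM in mot2∆, 0.725 and 0.424 CPM in mamRNA∆, from 22 and 15 counts, and 8.95 and 8.85 CPM in the double mutant. Only the mamRNA∆ libraries had counts this low, with 27 and 26 for tlh2. The interaction was 3.67 (SE 0.27; edgeR adjusted p = 7.11e-07) for tlh1 and 3.11 (SE 0.27; edgeR adjusted p = 2.92e-06) for tlh2. Heterochromatin islands have been described at the meiotic genes mei4 and ssm4, but their mRNAs are also targets of Mmi1. The 2 kinds of control cannot be told apart here. Their interactions were -1.75 and -1.24. In mot2∆ against wt, mei4 changed by 1.10 (SE 0.12; edgeR adjusted p = 7.91e-06) and ssm4 by 0.17 (SE 0.13; edgeR adjusted p = 0.293). In the double mutant against wt, the changes were -1.21 and -1.29. In mamRNA∆ against wt, mei4 changed by -0.56 (SE 0.13; edgeR adjusted p = 0.00429) and ssm4 by -0.22 (SE 0.14; edgeR adjusted p = 0.215). The level of an mRNA does not give the level or activity of its protein, which was not measured here.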

How the data were processed

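The authors depleted total RNA of ribosomal RNA, sequenced pairs of 75 nt reads, trimmed adapters with cutadapt 1.15, aligned with Bowtie2 and used MulticovBed to count reads over annotated features. The deposited values are raw counts, with no normalization. The members and lists were chosen with earlier results of these data known.

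The analysis used edgeR 4.0.16 in R 4.3.3. Of 6973 features, filterByExpr retained 6620 (count minimum 10, total minimum 15), and libraries were scaled with TMM factors. A single quasi-likelihood fit covered all 8 libraries, grouped by title. Contrasts were tested two-sided with the F test, and p-values were adjusted by Benjamini-Hochberg over all features. The threshold was an adjusted p of 0.05, and features that also passed an absolute log2 fold change of 1 were counted apart. The standard error (SE) is the size of the log2 fold change divided by the square root of F. The fit was tested on simulated data. All members were described, and a gene of the other lists could be named if 1 or more of its changes passed the threshold with a size above 0.5 on the log2 scale. The alternatives were RLE factors, library totals as the scale, removal of features above 1% of a library, other filters, removal of antisense features, DESeq2 1.42.0, fits of the compared genotypes alone, a replicate block, and omission of each library. The subtraction of an overlapping gene was added after seeing the data. Lengths, overlaps and sequences came from RefSeq (ASM294v3).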

Additional observations from a re-analysis of the deposited data

Results flagged for a closer look

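For 6 of the 10 genes, the change that went with loss of mamRNA was not the same in mot2∆ as in wt by the interaction test. Of all features, 47.6% passed that test, so the count itself does not set these genes apart. The interaction was 1.04 for rdp1, 0.24 for clr3, -0.26 for dcr1, -0.27 for ago1, -0.85 for clr1 and -1.40 for clr4. Those of rdp1, clr1 and clr4 kept their call under every alternative that left the counts as deposited. That of clr4 was -0.04 with the meu6 counts subtracted, and those of clr3, dcr1 and ago1 were lost under at least 1 alternative.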

How the results depend on the processing

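Of 60 pairs of a member and a comparison, 38 were called, where 42.5% to 60.4% of all features were called in each comparison. Of these 38 calls, 25 held under every alternative other than the subtractions. How often calls of all features held was not counted. With library totals as the scale, the median of all features moved to -0.11 for the interaction, and the share of higher among all calls moved from 51.1% to 38.2% for the interaction, from 48.8% to 38% in the double mutant against mot2∆ and from 49% to 39.7% in the double mutant against mamRNA∆. Under that scale, calls of members became 0 (lower, mamRNA∆ against wt), 1 (higher, double mutant against mot2∆), 1 (higher, double mutant against mamRNA∆) and 1 (higher, interaction), those of the 29 pathway genes became 3 (higher, mot2∆), 1 (lower, mamRNA∆) and 2 (higher, double mutant against mamRNA∆), and ago1 and chp1 reversed to -0.0066 and -0.017 in the double mutant against mot2∆. With the compared genotypes alone, 0 members and 1 pathway gene were lower in mamRNA∆. With DESeq2, the lower pathway genes in the double mutant against mot2∆ became 6, and for the interaction 1 member was higher and 2 lower. The higher members of the interaction were also 1 without features above 1% of a library, without a filter, with at least 10 counts everywhere and without antisense features. The swi6 change in mot2∆ reversed to 0.027 (totals), 0.0063 (no features above 1%), 0.020 (no filter), 0.0093 (at least 10 counts), 0.012 (no antisense) and 0.0088 (compared genotypes alone). The chp2 interaction reversed to -0.089 (totals), -0.0015 (no features above 1%), -0.011 (at least 10 counts) and -0.0098 (no antisense). Subtracting meu6 turned clr4 to -0.34 in mot2∆ and -0.18 in mamRNA∆. The cause of the other changes was not tested.

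Same-numbered libraries correlated between -0.108 and 0.163 in their deviations. Whether libraries of different genotypes share a batch, under these numbers or others, was not tested. With the replicate block, 1 member was higher for the interaction, and swi6 in mot2∆ was 0.00065. The block ended the interaction calls of dcr1 (edgeR adjusted p = 0.0521) and clr3 (edgeR adjusted p = 0.0666). With mamRNA∆ numbers crossed, a pairing added after seeing the data, the chp1 interaction passed (edgeR adjusted p = 0.0282). For the interaction, 1734 features were then higher and 1663 lower, against 1575 and 1521 with the block uncrossed and 1612 and 1542 without a block.

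Without 1 library at a time, pathway genes higher in mot2∆ ranged from 3 to 8, and in mot2∆ dcr1 ranged from -0.11 to 0.013, tas3 from -0.024 to 0.46, swi6 from -0.11 to 0.12 and chp2 from -0.021 to 0.34. In mamRNA∆, lower members ranged from 0 to 3, pathway genes from 3 to 6 (higher) and 1 to 8 (lower), tas3 from -0.33 to 0.15 and clr4 from -0.043 to 0.078. In the double mutant against wt, tas3 ranged from -0.37 to 0.10 and chp2 from -0.25 to 0.11. Against mot2∆, higher members ranged from 1 to 3, lower pathway genes from 4 to 13 and chp1 from -0.022 to 0.15. Against mamRNA∆, pathway genes ranged from 2 to 4 (higher) and 11 to 21 (lower), tas3 from -0.13 to 0.034 and chp2 from -0.047 to 0.38. For the interaction, members ranged from 1 to 2 (higher) and 2 to 6 (lower), pathway genes from 2 to 4 (higher) and 5 to 14 (lower) and chp2 from -0.18 to 0.24. The interaction could not be fitted with the compared genotypes alone, since it uses all 4.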
